A study of Mus musculus with 18 samples.

Results

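Toll-like receptors are membrane proteins of innate immunity that recognise molecules shared by microbes or released from damaged cells. The 10 genes described here (Tlr1, Tlr2, Tlr3, Tlr4, Tlr5, Tlr6, Tlr7, Tlr8, Tlr9 and Tlr13) were taken by name from the 50600 genes of the count table. No cut on their measured values was used, but earlier results of these data were known when they were chosen. All 10 passed the filter on low counts and were among the 16927 genes tested. RNA was sequenced from 18 whole B16F10 tumors, a mouse melanoma line grown subcutaneously in C57BL/6 mice, 24 h after the last intratumoral injection. The groups given 1 dose received PBS, unloaded extracellular vesicles (EVs), exoCDN2 at 0.1 µg, or free CDN2 at 20 or 100 µg. The groups given 2 doses, 3 days apart, received PBS, exoCDN2 at 0.1 µg, or free CDN2 at 20 µg. CDN2, CL656 in the sample labels, is a cyclic dinucleotide that activates STING, and exoCDN2 is a preparation of it with EVs from HEK293 cells overexpressing PTGFRN. Another pair of tumors received 2 doses of free CDN2 with no amount in their labels. Each of the 9 groups held 2 tumors, so an exact two-sided permutation test of a single value could not give a p below 0.333, and the tests below draw on a spread shared by 8 groups.

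Receptors of the surface class, Tlr1, Tlr2, Tlr4, Tlr5 and Tlr6, sit in the plasma membrane and bind lipoproteins, lipopolysaccharide or flagellin. Tlr3, Tlr7, Tlr8, Tlr9 and Tlr13 form the endosomal class, which senses nucleic acids inside endosomes and depends on the chaperone Unc93b1 to reach them. Signals run through the adaptor Myd88 for most members and through Ticam1 for Tlr3 and, in part, Tlr4, towards NF-kB and interferon regulatory factors. Macrophages, monocytes, neutrophils and dendritic cells are well-known sources of these receptors, and STING is a separate sensor in the cytosol. In whole-tumor RNA a change in the number of cells that express a gene and a change in its RNA per cell cannot be told apart.

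Total expected counts per tumor lay between 21608895 and 65983629.9, and the 10 receptors together held 2566 to 15183 of them. The shallowest library was replicate 1 of CDN2 (20 µg, 2 doses). Its group stood apart from the others: the log2 levels of its tumors correlated at 0.949 across genes and 27.2% of genes differed by over 2-fold between them, against 3.82% to 10.6% in the 7 other groups of the fit. That group also had the highest summed level of 4 muscle markers, 1550 and 3130 CPM (counts scaled to a common library size), where PBS tumors given 2 doses had 141 and 258. Melanoma markers were abundant throughout, with 6 genes summing to between 7210 and 24500 CPM. Keratinocyte markers (4 genes) were 61.8 to 115 CPM with 1 dose of PBS, against 0.184 to 1.53 with exoCDN2 and 0.914 to 5.48 with CDN2 (20 µg), and their part in the comparisons was not tested.

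The family had a wide range of levels in control tumors. Between genes, levels are compared here as CPM per kilobase of exon. After 1 dose of PBS, Tlr3, the sensor of double-stranded RNA, reached 6.17 and 6.12, and Tlr4, the receptor for lipopolysaccharide, 6.15 and 5.82. The ranges of Tlr3 and Tlr4 overlapped, and both lay above every other member. Next came Tlr2, which pairs with Tlr1 or Tlr6 to bind lipoproteins, at 1.87 and 1.73, overlapping Tlr13, a sensor of bacterial ribosomal RNA, at 1.32 and 2.03. Tlr1 followed at 0.850 and 0.923, above Tlr7, Tlr9 and Tlr8, whose ranges overlapped each other between 0.390 and 0.769. Lowest were Tlr6 at 0.188 and 0.213, and Tlr5, the flagellin receptor, at 0.0548 and 0.0662. Tlr5 rested on only 12 and 16 counts in those tumors, so its values carried the largest counting error.

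After 2 doses of exoCDN2 this order was different. Tlr3 led at 17.5 and 17.1 CPM per kilobase, and Tlr13 came second at 11.2 and 6.99, its lower tumor within the range of Tlr4 at 6.13 and 7.13. Tlr2 had 5.57 and 4.62, overlapping Tlr9 at 5.26 and 3.11. Tlr9, the receptor for unmethylated CpG DNA, overlapped in turn with Tlr7 at 4.0 and 2.74. The lowest member was again Tlr5, at 0.187 and 0.168.

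**Figure D1:**
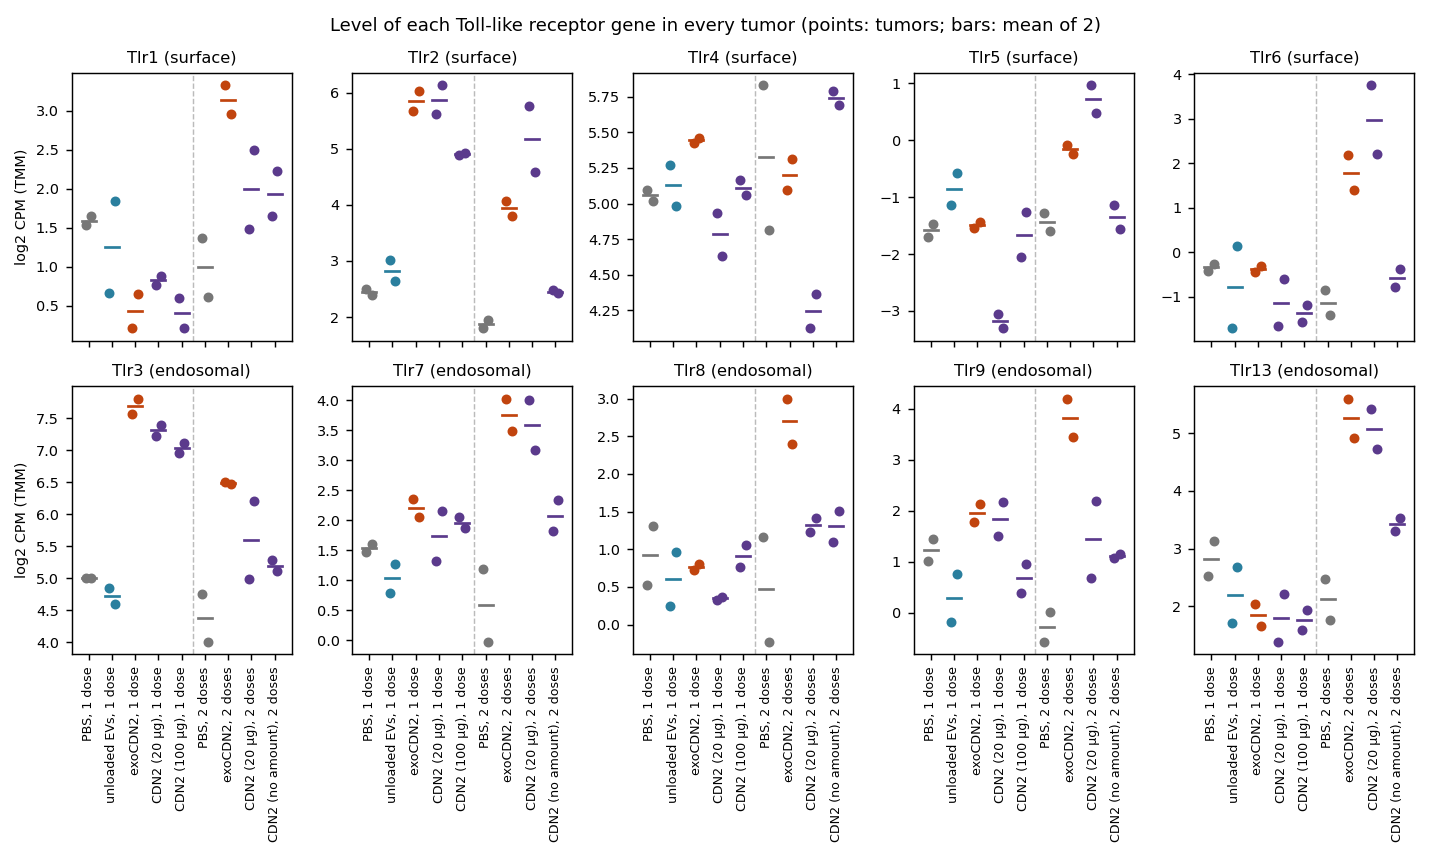
TMM-scaled log2 CPM (vertical axis) of each Toll-like receptor gene in all 9 groups (horizontal axis). Points are single tumors and bars the mean of 2, with a vertical axis of its own for each gene and a dashed line between 1 and 2 doses; Tlr2 is high in the exoCDN2 and CDN2 tumors with a stated amount after either number of doses, and so is Tlr3 except in CDN2 (20 µg, 2 doses) replicate 1, at 31.5 CPM, while Tlr7 and Tlr13 are high in those tumors only after 2 doses.

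Some members cannot be separated fully by sequencing reads. Tlr1 (chr5:64924679-64933563, minus strand, GRCm38) and Tlr6 (chr5:64952031-64960097, minus strand) are neighbouring paralogs whose coding sequences share an identical run of 229 bases, positions 1468 to 1696 of the Tlr1 coding sequence. Of the 50-base words of the Tlr1 coding sequence, 19.4% also occur in Tlr6, and no other pair of members shared one. The expected counts of Tlr1 and Tlr6 were not whole in most tumors, as happens where reads are divided between genes. The shared run is shown because it is the stretch in which a read fits both genes equally well.

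Tlr1 and Tlr6 shared coding run: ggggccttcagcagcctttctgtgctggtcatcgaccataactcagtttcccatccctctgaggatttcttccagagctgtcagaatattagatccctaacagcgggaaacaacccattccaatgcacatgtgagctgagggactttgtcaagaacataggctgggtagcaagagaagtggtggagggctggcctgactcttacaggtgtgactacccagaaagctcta

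Tlr3 (chr8:45395665-45411080, minus strand) overlaps an antisense gene, Gm45542, over 698 bases, and no source used here says whether the libraries kept strand. Gm45542 itself had 0 to 2 counts in every tumor.

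Unloaded EVs were compared with PBS to show the effect of the vesicles alone. No receptor passed the call rule, a ratio over 2 together with a Benjamini-Hochberg adjusted p under 0.05 from the quasi-likelihood test of edgeR across all genes, and 0% of all genes passed it. The smallest adjusted p of any gene by edgeR was 0.38, 540 genes had an unadjusted p under 0.05, and no member was among them. By DESeq2, 35 genes passed the same rule, with 0 members among them. Intervals stayed wide with 2 tumors a group: the log2 fold change was -0.90 for Tlr9, with a 95% interval of -1.99 to 0.19, and 0.40 for Tlr2, with an interval of -0.30 to 1.10.

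A single dose of the STING agonist raised 1 receptor of each class, Tlr2 and Tlr3, in all 3 treated groups. Tlr2 stood at 5.64 and 5.21 CPM with PBS and at 8.08 and 6.17 with unloaded EVs. It reached 51.2 and 65.0 with exoCDN2, 49.0 and 70.0 with CDN2 (20 µg), and 29.8 and 30.5 with CDN2 (100 µg). Every treated tumor was far above all 4 control tumors. Against PBS, the log2 fold change of Tlr2 was 3.42 ± 0.34 (SE, n = 2 per group) for exoCDN2 (edgeR adjusted p = 0.00016), 3.45 ± 0.34 for CDN2 (20 µg) (edgeR adjusted p = 0.00016) and 2.48 ± 0.33 for CDN2 (100 µg) (edgeR adjusted p = 0.0018).

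Tlr3 levels were 32.1 and 31.8 CPM with PBS and 28.6 and 24.2 with unloaded EVs. They were 190.0 and 224 with exoCDN2, 149 and 169 with CDN2 (20 µg), and 125 and 139 with CDN2 (100 µg). The treated and control tumors did not overlap, and the treated tumors fell in the order exoCDN2, CDN2 (20 µg), CDN2 (100 µg). Against PBS, Tlr3 rose by 2.70 ± 0.33 on the log2 scale with exoCDN2 (edgeR adjusted p = 0.00076), by 2.31 ± 0.33 with CDN2 (20 µg) (edgeR adjusted p = 0.0019), and by 2.04 ± 0.33 with CDN2 (100 µg) (edgeR adjusted p = 0.0057). The last call was lost without either PBS tumor, at log2 fold changes of 2.05 without replicate 1 and 2.03 without replicate 2 (edgeR adjusted p = 0.092 and 0.10). With exoCDN2, 2 of 10 receptors were thus called, where 2.62% of all genes were called in either direction. For CDN2 (20 µg) the background was 3.14% and for CDN2 (100 µg) 2.44%. Compared with unloaded EVs in place of PBS, exoCDN2 again had 2 members called, Tlr2 at 3.03 ± 0.34 and Tlr3 at 2.97 ± 0.34 (edgeR adjusted p = 0.00025 and 0.00030), where 2.95% of all genes were called.

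The sequences upstream of these starts are given because Tlr2 and Tlr3 moved together, and the windows of Tlr6 and Tlr9 follow for comparison. They come from RefSeq promoters on GRCm38, cut to the bases that lie outside annotated exons. Capitals mark matches, on either strand, to an interferon-stimulated response element (GAAA, any 2 bases, GAAA), to the core bound by interferon regulatory factors (AANNGAAA, which every such element also contains), and to the NF-kB consensus. Where matches overlap or adjoin, they read as a single capital run. Tlr2 is at chr3:83841768-83841858 (minus strand), Tlr3 at chr8:45410381-45410452 (minus strand, inside an intron of its longest gene model), Tlr6 at chr5:64959167-64959416 (minus strand, the inner of its starts) and Tlr9 at chr9:106222348-106222597 (plus strand).

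Tlr2 upstream: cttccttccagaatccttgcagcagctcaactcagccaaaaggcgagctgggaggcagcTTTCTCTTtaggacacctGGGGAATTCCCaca
Tlr3 upstream: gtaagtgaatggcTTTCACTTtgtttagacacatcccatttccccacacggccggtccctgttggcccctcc
Tlr6 upstream: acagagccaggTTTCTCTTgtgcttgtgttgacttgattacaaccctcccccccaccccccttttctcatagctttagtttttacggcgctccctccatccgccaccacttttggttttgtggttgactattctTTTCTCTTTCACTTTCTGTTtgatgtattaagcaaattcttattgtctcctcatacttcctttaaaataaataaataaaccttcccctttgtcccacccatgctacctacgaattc
Tlr9 upstream: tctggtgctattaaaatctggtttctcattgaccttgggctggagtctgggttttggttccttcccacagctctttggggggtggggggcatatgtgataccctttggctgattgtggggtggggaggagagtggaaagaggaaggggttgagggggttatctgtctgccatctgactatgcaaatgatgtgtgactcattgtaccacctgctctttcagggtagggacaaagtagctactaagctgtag

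Both the Tlr2 and the Tlr3 windows of 250 bases held the NF-kB consensus, which 3.9% of 32851 mouse promoters of that length hold; the Tlr3 match lies in exon bases that are not shown, as does another core of Tlr2. An interferon regulatory core was present in the windows of Tlr2 and Tlr3 and in the inner windows of Tlr6 and Tlr1, against 21.3% of promoters. The inner Tlr6 window also held 2 overlapping response elements, which 2.98% of promoters hold. Tlr6 and Tlr1 each have an outer start as well, and those windows had no match to these or to the NF-kB consensus. Tlr9, Tlr5, Tlr8 and Tlr13 had no match to any of these in their windows. Such matches are descriptions of letters and not of bound sites, and the motifs were chosen after the sequences had been seen. No promoter sequence was available for Tlr4 and Tlr7, so they were not searched for these motifs.

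The other 8 receptors were not called after 1 dose of any agent. Tlr13 had 5.69 and 8.73 CPM with PBS, 4.06 and 3.13 with exoCDN2, and 2.58 and 4.57 with CDN2 (20 µg). All 4 treated tumors of Tlr13 lay below both PBS tumors, at a log2 fold change of -1.0 for exoCDN2 (95% interval -1.92 to -0.09, edgeR adjusted p = 0.26). Tlr5 had 12 and 16 counts with PBS and 3 and 2 counts with CDN2 (20 µg). That is a ratio of 0.225 with a counting interval of 0.0677 to 0.589, and Tlr5 was not called (edgeR adjusted p = 0.050, which passed only when all 4 PBS tumors served as 1 control group). Tlr4 was 34.2 and 32.3 CPM with PBS, 43.0 and 43.9 with exoCDN2, and 30.5 and 24.8 with CDN2 (20 µg), and its log2 fold change against PBS was 0.39 (-0.17 to 0.95) and -0.27 (-0.83 to 0.29), in that order.

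Delivery in vesicles and free delivery were then compared directly, at amounts that differ: 0.1 µg of exoCDN2 and 20 µg of CDN2. After 1 dose, 0 of 10 receptors differed, where 0.608% of all genes did. An unadjusted edgeR p under 0.05 was found for 2 of 10 members and for 3300 of the 16927 genes tested. Tlr2 differed by -0.03 on the log2 scale, with an interval of -0.70 to 0.64, and Tlr3 by 0.38, with an interval of -0.30 to 1.07. Between 100 and 20 µg of free CDN2, again 0 receptors were called, where 0.455% of all genes were. Here 3 of 10 members had an unadjusted edgeR p under 0.05, beside 2797 of the 16927 genes tested. Tlr2 was the lower at 100 µg, by -0.98 (interval -1.66 to -0.30, edgeR adjusted p = 0.15), with no overlap between the groups.

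**Figure D2:**
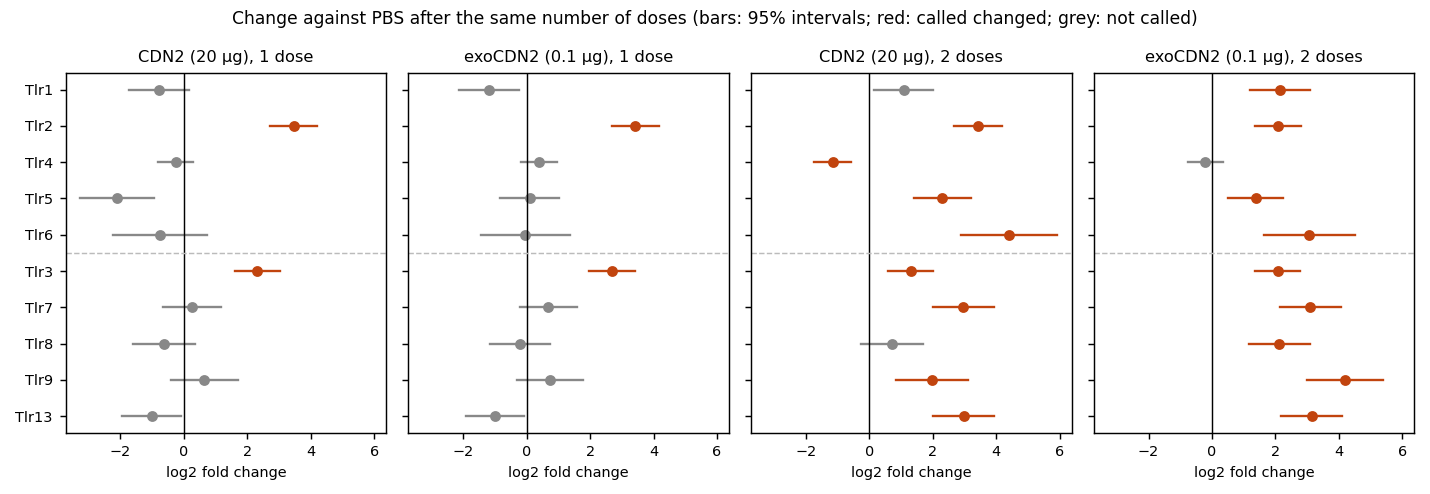
Log2 fold change (horizontal axis) of each receptor against PBS tumors given the same number of doses, with 95% intervals; surface receptors are above the dashed line, and red marks genes that passed the call rule. Tlr2 and Tlr3 are red in all 4 panels, and after 2 doses 8 of 10 receptors are red with CDN2 and 9 of 10 with exoCDN2.

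Repeated dosing involved nearly the whole family. After 2 doses of exoCDN2, 9 of 10 receptors were higher than with 2 doses of PBS, where 8.87% of all genes were called higher and 11.3% in either direction. All 5 endosomal receptors were among them, with 4 of 5 surface receptors, and Tlr4 was the exception. Both exoCDN2 tumors were above both PBS tumors for these 9, an order that 30.3% of all genes showed. The median log2 fold change was 3.10 over the endosomal class and 2.08 over the surface class, beside 0.01 over all genes.

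Tlr9 had the largest change in the family. Its level was 0.633 and 0.963 CPM with PBS and 18.3 and 10.8 with exoCDN2, so the groups were far apart. The log2 fold change was 4.19 ± 0.54 (SE, n = 2 per group, edgeR adjusted p = 0.00034). Tlr13 rose from 5.49 and 3.37 CPM to 48.4 and 30.1, a log2 fold change of 3.14 ± 0.44 (edgeR adjusted p = 0.00054). Tlr7, a receptor for single-stranded RNA, had 2.24 and 0.941 CPM with PBS and 16.3 and 11.2 with exoCDN2, a log2 fold change of 3.10 ± 0.44 (edgeR adjusted p = 0.00062). For Tlr13 and Tlr7 alike, the lower exoCDN2 tumor was above the higher PBS tumor. Tlr8, which lies beside Tlr7 on the X chromosome and is related to it, had 2.20 and 0.810 CPM with PBS and 7.96 and 5.21 with exoCDN2 (log2 fold change 2.12 ± 0.44, edgeR adjusted p = 0.0063). The PBS tumors of Tlr8 were themselves well apart.

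Tlr3 remained above PBS after the second dose of exoCDN2, at 91.1 and 89.0 CPM against 26.9 and 16 (log2 fold change 2.07 ± 0.33, edgeR adjusted p = 0.0012). Tlr2 was 16.8 and 13.9 CPM, against 3.43 and 3.81 with PBS (log2 fold change 2.08 ± 0.33, edgeR adjusted p = 0.0012). The exoCDN2 tumors of both genes were above every PBS tumor given 2 doses and, as levels, below both exoCDN2 tumors given 1 dose. Of the partners of Tlr2, Tlr6 rose from 0.510 and 0.328 CPM to 4.54 and 2.58 (log2 fold change 3.07 ± 0.66, edgeR adjusted p = 0.0076). Tlr1 rose from 2.53 and 1.49 CPM to 9.99 and 7.74 (log2 fold change 2.14 ± 0.43, edgeR adjusted p = 0.0054). Tlr5 was higher by the smallest step, 0.367 and 0.285 CPM against 0.896 and 0.803 (log2 fold change 1.37 ± 0.40, edgeR adjusted p = 0.035).

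Tlr4 did not follow the rest of the family with exoCDN2. It was 56.8 and 28.1 CPM with PBS and 34.1 and 39.6 with exoCDN2, and both exoCDN2 tumors lay between the PBS tumors (log2 fold change -0.21, 95% interval -0.76 to 0.35). Without PBS replicate 2, the calls of Tlr1, Tlr5, Tlr6 and Tlr8 in this comparison were lost. Tlr5 was also lost without PBS replicate 1 or either exoCDN2 tumor, and Tlr6 and Tlr8 without exoCDN2 replicate 1. Calls over all genes fell too without PBS replicate 2 or exoCDN2 replicate 1. They were slightly more numerous without PBS replicate 1 or exoCDN2 replicate 2.

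With 2 doses of free CDN2 (20 µg), 7 of 10 receptors were higher than with PBS and 1 was lower, where 20% and 10.6% of all genes were, 30.6% together. Tlr6 changed most, from 0.510 and 0.328 CPM with PBS to 13.4 and 4.56 with CDN2 (log2 fold change 4.41 ± 0.69, edgeR adjusted p = 0.00043). Tlr2 reached 54.4 and 24.0 CPM (log2 fold change 3.44 ± 0.35, edgeR adjusted p = 0.000036). Every CDN2 tumor of Tlr6 and Tlr2 was above every PBS tumor, although the 2 CDN2 tumors differed from each other by over 2-fold for both genes.

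Among endosomal receptors, Tlr13 was 42.9 and 26.4 CPM with CDN2 (log2 fold change 2.97 ± 0.44, edgeR adjusted p = 0.00030) and Tlr7 16 and 8.99 CPM (log2 fold change 2.97 ± 0.44, edgeR adjusted p = 0.00032). Both were well above PBS and overlapped the exoCDN2 tumors. Tlr5 was 1.91 and 1.35 CPM (log2 fold change 2.30 ± 0.41, edgeR adjusted p = 0.00090). Tlr9 had 1.57 and 4.51 CPM (log2 fold change 1.97 ± 0.52, edgeR adjusted p = 0.0084) and Tlr3 31.5 and 73.5 CPM (log2 fold change 1.3 ± 0.32, edgeR adjusted p = 0.0059), and for both it was CDN2 replicate 1, the shallow library, that was close to PBS.

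Tlr4 was the receptor that fell, from 56.8 and 28.1 CPM with PBS to 17.4 and 20.5 with CDN2. The log2 fold change was -1.16 ± 0.26 (edgeR adjusted p = 0.0036), and without PBS replicate 1 it was -0.58, short of the ratio required. Tlr1, at 2.75 and 5.62 CPM, had a log2 fold change of 1.08 (0.14 to 2.02, edgeR adjusted p = 0.054) and passed the rule without CDN2 replicate 1. Tlr8, at 2.30 and 2.63 CPM, had a log2 fold change of 0.71 (-0.26 to 1.68, edgeR adjusted p = 0.20) and 1.59 without PBS replicate 1, then called. Tlr3 and Tlr9 lost their calls without CDN2 replicate 2, at 0.51 and 0.93. Tlr3 was also lost without PBS replicate 2, at 0.96, and Tlr9 without PBS replicate 1, at 1.68. The calls of Tlr3, Tlr4 and Tlr9 were lost as well in a fit of only the groups compared and with all PBS tumors pooled, where 5 calls were left. Over all genes, those fits called 3060 of 15817 and 4933 of 16927, in that order.

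Then exoCDN2 and CDN2 (20 µg) were set against each other after 2 doses, again at 0.1 and 20 µg, and neither class moved as a whole. Higher with exoCDN2 were 2 endosomal receptors, Tlr9 and Tlr8, and lower was 1 surface receptor, Tlr2, where 19.4% of all genes were called in either direction. Tlr9 was 18.3 and 10.8 CPM with exoCDN2 and 1.57 and 4.51 with CDN2, with no overlap (log2 difference 2.22 ± 0.49, edgeR adjusted p = 0.0067). Tlr8 was 7.96 and 5.21 CPM against 2.30 and 2.63 (log2 difference 1.41 ± 0.44, edgeR adjusted p = 0.027), and Tlr2 was 16.8 and 13.9 against 54.4 and 24.0 (log2 difference -1.35 ± 0.32, edgeR adjusted p = 0.0082). The levels of Tlr7 and Tlr13 overlapped between these groups, with log2 differences of 0.14 (-0.74 to 1.02) and 0.17 (-0.70 to 1.05). Tlr4 was higher with exoCDN2 by 0.95 (0.38 to 1.52, edgeR adjusted p = 0.016), a ratio under 2.

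This comparison rested heavily on single tumors. Without CDN2 replicate 1, the shallow library, or without exoCDN2 replicate 2, Tlr9 alone was called and Tlr2 and Tlr8 were lost. Without CDN2 replicate 2, Tlr1, Tlr3 and Tlr4 were added above and Tlr5 and Tlr6 below. Calls over all genes also rose in that fit, and they fell without CDN2 replicate 1 or exoCDN2 replicate 2. Tlr8 was lost without exoCDN2 replicate 1 too. In a fit of only these 2 groups, 0 receptors were called, where 30 of the 16125 genes tested were. With the reads of Tlr1 and Tlr6 summed as 1 gene, the difference of Tlr1, 1.06 (0.14 to 1.98), and that of Tlr6, -1.34 (-2.63 to -0.05), neither of them called, became a single value of -0.088.

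As a sum of CPM per kilobase, the endosomal class stood at 9.12 and 10.3 with PBS after 1 dose and the surface class at 9.12 and 8.75, a ratio of endosomal to surface of 1.00 and 1.18. The ratio was 0.704 and 0.839 with unloaded EVs, 1.58 and 1.54 with exoCDN2, 1.39 and 1.28 with CDN2 (20 µg), and 1.57 and 1.78 with CDN2 (100 µg). All 6 treated tumors had a higher ratio than the 4 control tumors, and Tlr3 alone held 50.2% to 57.7% of the family total in them, against 27.5% to 33.8% in the control tumors. After 2 doses, PBS tumors had 0.631 and 0.664 and exoCDN2 tumors 2.50 and 2.10, the highest of any group. CDN2 (20 µg) tumors had 0.809 and 1.65, and they differed more from each other than the tumors of any other group. In control tumors Tlr3 and Tlr4 were the bulk of these sums, with Tlr4 supplying 50.9% and 44.0% of the family total in PBS tumors given 2 doses, against 10.9% and 15.4% with exoCDN2. The share of Tlr13 was 6.34% and 6.80% with PBS, 20.0% and 15.1% with exoCDN2, and 21.2% and 15.6% with CDN2, and the share of Tlr2 was 38.4% and 20.2% with CDN2 where exoCDN2 had 9.89% and 9.97%.

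**Figure D3:**
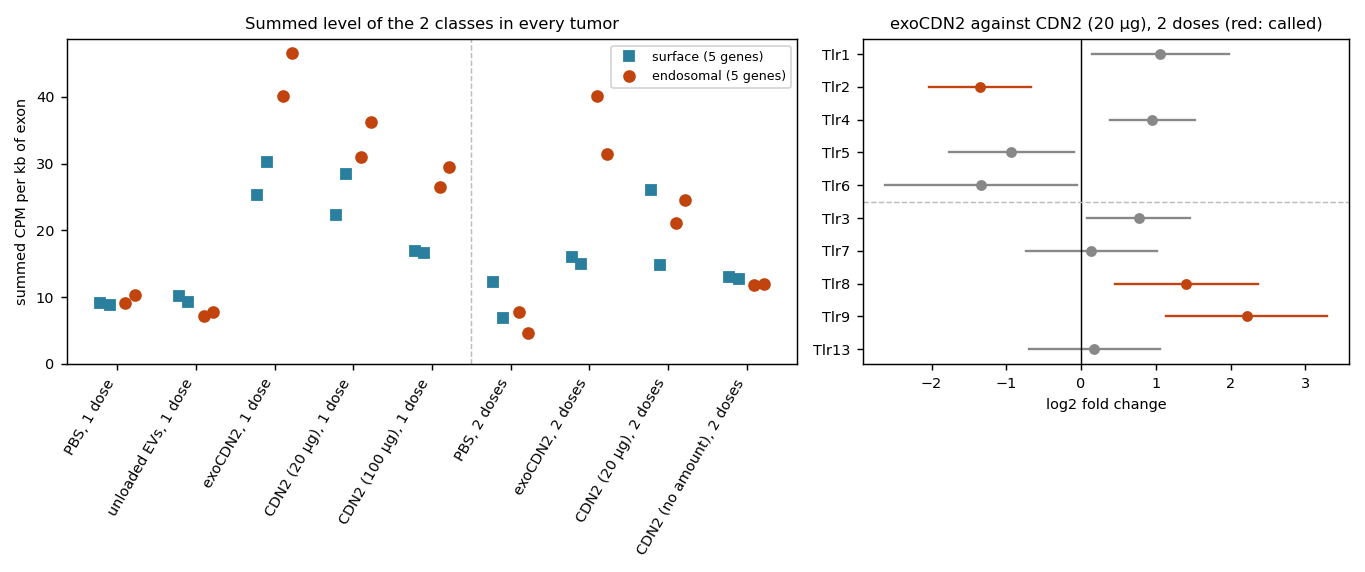
Left, summed CPM per kilobase of exon (vertical axis) of the 5 surface and the 5 endosomal receptors in every tumor of 9 groups, with a dashed line between 1 and 2 doses; the endosomal sum is the higher one in both exoCDN2 groups and reaches 40.2 and 31.4 after 2 doses. Right, log2 fold change of exoCDN2 against CDN2 (20 µg) after 2 doses with 95% intervals, surface receptors above the dashed line, where Tlr8 and Tlr9 (higher) and Tlr2 (lower) are called.

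Whether the effect of treatment over PBS differed between 2 doses and 1 was tested as an interaction. For exoCDN2, 5 receptors gained with the second dose, where 6.82% of all genes changed in either direction: Tlr1, Tlr7, Tlr8, Tlr9 and Tlr13. Of these, Tlr13 had the largest difference, 4.15 ± 0.60 on the log2 scale (edgeR adjusted p = 0.0021). It kept its call with each tumor left out. Receptor calls fell without either exoCDN2 tumor given 1 dose, without PBS (1 dose) replicate 2 and without exoCDN2 (2 doses) replicate 1. Calls over all genes fell in those fits too. Without PBS (1 dose) replicate 1 or PBS (2 doses) replicate 2, the calls lost included Tlr7, at 2.48 and 1.93. Tlr7 lost its call in 6 of the 8 fits with a tumor left out, Tlr8 in 5, Tlr9 in 3 and Tlr1 in 1, and Tlr8 also lost it when replicate number was a block (log2 difference 2.33, edgeR adjusted p = 0.057). For CDN2 (20 µg), Tlr1, Tlr5, Tlr6, Tlr7 and Tlr13 gained, where 16.8% of all genes changed. Tlr6 had the largest difference, 5.17 ± 0.95 (edgeR adjusted p = 0.0051), and that of Tlr5, 4.41 ± 0.67 (edgeR adjusted p = 0.0027), rests on the 3 and 2 counts of the 1-dose tumors. Leaving out CDN2 (1 dose) replicate 1 lost the calls of Tlr1 and Tlr7, in a fit that also called fewer of all genes. Tlr1 also lost its call without CDN2 (1 dose) replicate 2, CDN2 (2 doses) replicate 2, PBS (2 doses) replicate 2 or either PBS tumor given 1 dose, and when replicate number was a block (log2 difference 1.81, edgeR adjusted p = 0.065).

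Neither Tlr2 nor Tlr3 gained with the second dose. For exoCDN2 their interactions were -1.34 (-2.32 to -0.35, edgeR adjusted p = 0.096) and -0.63 (-1.60 to 0.35), and for CDN2 (20 µg) -0.02 (-1.02 to 0.98) and -1.01 (-1.99 to -0.04, edgeR adjusted p = 0.12). PBS tumors given 2 doses and 1 did not differ in any of the 10 receptors by the call rule, where 1.1% of all genes differed. Among the receptors Tlr9 alone had an unadjusted edgeR p under 0.05, as did 1768 of the 16927 genes tested. Its log2 difference was -1.54 (-2.66 to -0.42, edgeR adjusted p = 0.25). Even so, 7 of 10 receptors, Tlr1, Tlr2, Tlr3, Tlr6, Tlr7, Tlr9 and Tlr13, had both PBS tumors given 2 doses below both given 1, an order that 22.9% of all genes showed. Leukocyte markers were 76.3 to 96.2 CPM in PBS tumors given 1 dose and 36 to 41.5 in those given 2. These PBS tumors are the baseline of every fold after 2 doses and of both interactions.

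Several lists of leukocyte markers, though not all, moved with the receptors after the second dose. The summed CPM of 4 leukocyte markers was 36 to 41.5 with PBS, 219 to 339 with exoCDN2 and 201 to 363 with CDN2 (20 µg), and no marker of this list was at 0. Monocyte markers (3 genes) were 11.7 to 17, 294 to 520 and 469 to 1650 in the same order. Neutrophil markers (6 genes) were 1.55 to 1.98, 17.8 to 60.2 and 198 to 870. Macrophage markers (7 genes) were 135 to 143, 327 to 491 and 392 to 611, and fibroblast markers (5 genes) 186 to 207, 297 to 626 and 598 to 1620. T cell markers (6 genes) were 0.854 to 1.82 with PBS, 26.4 to 34.5 with exoCDN2 and 7.68 to 7.90 with CDN2. Plasmacytoid dendritic cell markers (4 genes) were 1.22 to 1.42, 1.58 to 1.93 and 13.5 to 19.4, but with CDN2 the gene called among them was Cox6a2 alone (log2 fold change 4.12), which skeletal muscle also expresses, in the group with the highest muscle markers. Ccr9 and Klk1 were not called (0.95 and 0.26) and Siglech was not tested. Dendritic cell markers (6 genes) did not rise, at 11.5 to 13 with PBS, 12.2 to 13.6 with exoCDN2 and 6.42 to 6.72 with CDN2, where Flt3 and Cd209a were called lower (-3.03 and -3.47). NK cell markers (3 genes) were 0.788 to 1.37, 8.38 to 12.4 and 1.12 to 5.81. Melanoma markers (6 genes) fell from 23100 to 23300 with PBS to 14500 to 15700 with exoCDN2 and 7210 to 12500 with CDN2. After 1 dose, leukocyte markers were 76.3 to 96.2 with PBS, 73.5 to 83.6 with exoCDN2 and 68.2 to 129 with CDN2 (20 µg), and so overlapped, while neutrophil markers were 4.48 to 4.73, 38.8 to 63.9 and 13.5 to 31.5. The part of these cell types in the receptor changes was not tested.

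**Figure D4:**
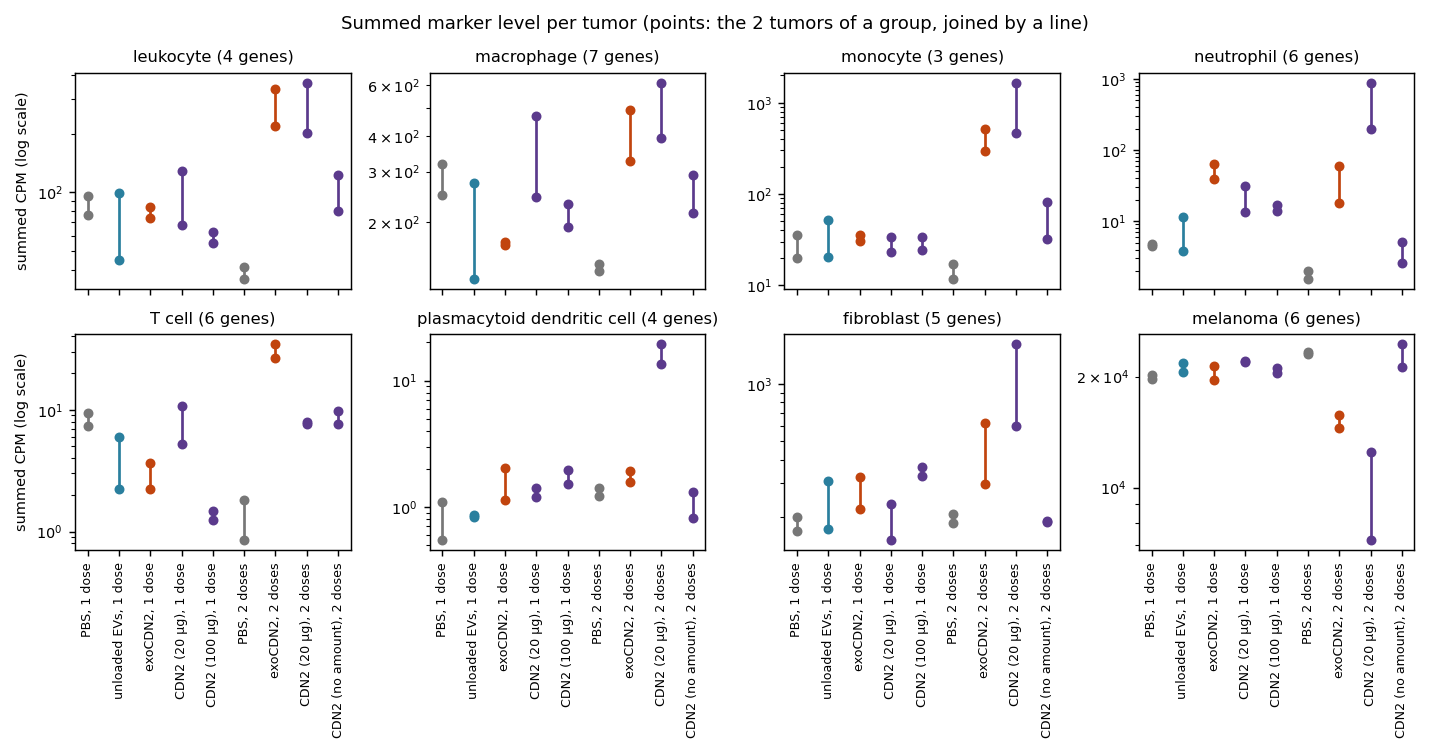
Summed CPM on a log axis (vertical, with its own range in each panel) of 8 marker lists in the 2 tumors of each of 9 groups, joined by a line. Leukocyte and monocyte markers are high in both groups given 2 doses of exoCDN2 or CDN2 (20 µg), whereas after 1 dose leukocyte markers of exoCDN2 and CDN2 (20 µg) tumors overlap those of PBS tumors.

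Set against 100 CPM of the leukocyte markers, the receptors formed different groups. After 1 dose, Tlr2 was 7.39 and 5.41 CPM with PBS and 61.3 and 88.4 with exoCDN2, and Tlr3 was 42.1 and 33.1 with PBS and 227 and 305 with exoCDN2. On this scale both stayed far above PBS after 1 dose. After 2 doses they were not above PBS with exoCDN2: Tlr2 was 8.26 and 10.6 with PBS and 4.95 and 6.35 with exoCDN2, and Tlr3 was 64.7 and 44.6 with PBS and 26.9 and 40.6 with exoCDN2. With CDN2 (20 µg), Tlr2 was 15 and 11.9, above PBS, and Tlr3 8.68 and 36.6, below it. Tlr1, at 6.10 and 4.14 with PBS, was lower with exoCDN2 at 2.94 and 3.53 and with CDN2 at 0.756 and 2.80. Tlr5 was 0.885 and 0.791 with PBS, 0.264 and 0.366 with exoCDN2, and 0.524 and 0.674 with CDN2, and so was also below PBS with both agents. Of the other receptors after 2 doses, Tlr13 was 13.2 and 9.37 with PBS, 14.3 and 13.7 with exoCDN2, and 11.8 and 13.2 with CDN2 (20 µg), and Tlr7 was 5.41 and 2.62, 4.81 and 5.11, and 4.41 and 4.48. By this measure Tlr7 stayed within the range of the PBS tumors with either agent. Tlr13 was slightly above both PBS tumors with exoCDN2 and within their range with CDN2. Tlr9 was 1.52 and 2.68 with PBS and 5.39 and 4.93 with exoCDN2, above PBS, and 0.432 and 2.25 with CDN2. Tlr8 was 5.31 and 2.25 with PBS and 2.35 and 2.38 with exoCDN2, within the PBS range. With CDN2 it was 0.632 and 1.31, below PBS. Tlr6 was 1.23 and 0.913 with PBS, 1.34 and 1.18 with exoCDN2, and 3.70 and 2.27 with CDN2, the group that stood above. Tlr4 was 137 and 78.3 with PBS, 10 and 18.1 with exoCDN2, and 4.78 and 10.2 with CDN2, so both treated groups lay far below.

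Across the 16 tumors of known amount, log2 levels of Tlr13, Tlr6 and Tlr7 followed the leukocyte markers (Pearson r = 0.904, 0.924 and 0.920) and the monocyte markers (0.933, 0.962 and 0.904). They also had r = 0.754, 0.852 and 0.805 with the fibroblast markers and -0.828, -0.923 and -0.790 with the melanoma markers. With the leukocyte markers Tlr3 had r = 0.162 and Tlr2 0.364, and Tlr8, Tlr1, Tlr9 and Tlr5 lay between, at 0.730, 0.725, 0.717 and 0.614. The highest values of Tlr2 and Tlr3 over all lists were with the neutrophil markers (0.749 and 0.430), which were also higher in the tumors given 1 dose of either agent. Tlr1 was closest to the NK cell markers (0.909), and Tlr4 had a negative r with the leukocyte markers (-0.533) and a positive one with the melanoma markers (0.647). Within the family the highest r was that of Tlr6 with Tlr13, 0.943, and Tlr2 and Tlr3 had 0.836. These values are descriptions over tumors that share groups and library composition. The genes most like Tlr2 among all tested were Myd88, Tnfaip3 and Birc3 (r = 0.984, 0.983 and 0.982). Samd9l was the gene most like Tlr3 (0.983), Pirb most like Tlr13 (0.968), Fes and Tnfrsf13b most like Tlr6 (0.975 each), Gm49339 most like Tlr7 (0.970), Traf3ip3 most like Tlr1 (0.963), Fam114a1 most like Tlr8 (0.936) and Scai most like Tlr4 (0.968). Dock8 (0.964) and Cd180 (0.942), the latter a relative of the Toll-like receptors, were closest to Tlr9, and Pdgfra, a fibroblast marker, was closest to Tlr5 (0.976).

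The wider pathway was followed in 7 lists with 53 genes in all, each of them tested. After 2 doses of exoCDN2, 16 of 53 were higher and 0 lower than with PBS, and after 2 doses of CDN2 (20 µg) 19 were higher and 0 lower, beside the 8.87% and 20% of all genes called higher that were given above. Of 10 genes that carry endosomal receptors to their compartment or cleave them, 6 were higher with exoCDN2 and 6 with CDN2. With exoCDN2, Unc93b1 rose by 1.82 ± 0.29 on the log2 scale, the lysosomal proteases Ctss by 2.71 ± 0.46, Lgmn by 1.34 ± 0.22 and Ctsb by 1.25 ± 0.19 (edgeR adjusted p = 0.0013, 0.0019, 0.0017 and 0.00089). With CDN2, Unc93b1 rose by 2.11 ± 0.30 and Ctsl by 1.95 ± 0.22 (edgeR adjusted p = 0.00022 and 0.000069). Of 10 genes in this list, 0 differed between exoCDN2 and CDN2.

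Co-receptors and ligand carriers were higher for 2 of 6 genes with exoCDN2 and 4 of 6 with CDN2. Cd14, which hands lipopolysaccharide to Tlr4, rose by 2.23 ± 0.71 with exoCDN2 and by 5.52 ± 0.80 with CDN2 (edgeR adjusted p = 0.048 and 0.00027), and it was lower with exoCDN2 than with CDN2 by -3.29 ± 0.72 (edgeR adjusted p = 0.0060). Cd180 went the other way between the agents, with 3.54 ± 0.44 and 1.19 ± 0.42 over PBS and a difference of 2.35 ± 0.42 (edgeR adjusted p = 0.00026, 0.033 and 0.0027). Ly96, the partner of Tlr4 in binding lipopolysaccharide, was not called with exoCDN2 (0.63, edgeR adjusted p = 0.060).

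Adaptors were higher for 2 of 5 genes with either agent. These were Myd88, by 1.48 ± 0.28 with exoCDN2 and 2.01 ± 0.29 with CDN2 (edgeR adjusted p = 0.0036 and 0.00023), and Pik3ap1, by 3.72 ± 0.39 and 3.59 ± 0.39 (edgeR adjusted p = 0.000070 and 0.000054). Ticam1 was not called with either (0.56 and 0.38). Of 14 kinases and ubiquitin ligases, Irak2 alone was higher with exoCDN2 and with CDN2, by 1.32 ± 0.25 and 1.56 ± 0.26 (edgeR adjusted p = 0.0041 and 0.00056). Transcription factors were higher for 2 of 6 genes, Irf7 by 5.77 ± 0.31 and 6.51 ± 0.32 and Irf5 by 3.29 ± 0.45 and 4.15 ± 0.47 (edgeR adjusted p = 6.8e-07, 4.1e-07, 0.00048 and 0.000070).

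Inhibitors of the pathway were higher for 3 of 10 genes with exoCDN2 and 4 of 10 with CDN2. Il1rl1, the receptor for IL-33 and a decoy in this pathway, rose by 5.54 ± 0.88 and 8.73 ± 0.99 (edgeR adjusted p = 0.0012 and 0.000072), and Tnfaip3, a ubiquitin-editing enzyme that limits NF-kB, by 1.81 ± 0.39 and 3.50 ± 0.42 (edgeR adjusted p = 0.0079 and 0.000092). Irak3, a brake on receptor kinases, rose by 2.71 ± 0.62 and 4.12 ± 0.65 (edgeR adjusted p = 0.010 and 0.00044). Nfkbia, which holds NF-kB in the cytosol, rose by 6.05 ± 0.76 with CDN2 (edgeR adjusted p = 0.00012) and had 1.70 ± 0.63 with exoCDN2, where it was not called (edgeR adjusted p = 0.088). Il1rl1, Tnfaip3 and Nfkbia were all lower with exoCDN2 than with CDN2, by -3.19, -1.69 and -4.35 (edgeR adjusted p = 0.0086, 0.0074 and 0.0020). Between these agents 3279 of 16927 genes were called, but a fit of only these groups called 30. The differences of these genes, and of Cd14 and Cd180 above, were not examined singly in that fit. After 1 dose, 7 of the 53 genes were higher and 1 lower with exoCDN2, and 8 were higher and 0 lower with CDN2 (20 µg), where 2.62% and 3.14% of all genes were called in either direction. Myd88 was higher with both, by 1.99 each, as was Tnfaip3, by 3.50 and 3.87.

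The pair of tumors given 2 doses of CDN2 with no stated amount was compared with PBS in a fit of all 18 tumors. No receptor was called, where 0.959% of all genes were. An unadjusted edgeR p under 0.05 was found for 5 members, Tlr1, Tlr3, Tlr7, Tlr9 and Tlr13, and for 1787 of the 17110 genes tested. Tlr7 had 3.49 and 5.01 CPM, against 2.24 and 0.941 with PBS, at a log2 fold change of 1.41 (0.50 to 2.31, edgeR adjusted p = 0.19), and it was called without PBS replicate 1. Tlr2 had 5.52 and 5.35 CPM, against 3.43 and 3.81, at a log2 fold change of 0.59 (-0.09 to 1.26, edgeR adjusted p = 0.55). Both tumors were above both PBS tumors for Tlr7 and Tlr2, and both were far below the 54.4 and 24.0 CPM of Tlr2 in the tumors labelled 20 µg.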

How the data were processed

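RNA from 18 whole tumors was sequenced. The authors removed low-quality reads, used the OSA aligner of OmicSoft ArraySuite on the GRCm38 genome, and had RSEM estimate each gene's expected count. The authors deposited these expected counts without normalization, and 8.75% to 12.7% of the values in a tumor were not whole. Gene symbols (50376 of 50600 identifiers), positions and exon lengths came from GENCODE on GRCm38.

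Testing used edgeR 4.0.16 (R 4.3.3) on rounded expected counts. The filterByExpr function (minimum count 10, minimum total 15) chose the genes, which were scaled by TMM and fitted with 1 quasi-likelihood model with 1 mean per group to 16 tumors of 8 groups. The tumors with no stated amount entered a separate fit of 18 tumors and 17110 genes. A call needed a ratio over 2 and a Benjamini-Hochberg adjusted p, taken over every gene tested, under 0.05. Folds are on the log2 scale, and levels are TMM-scaled CPM, or log2 CPM with a prior count of 2. All 10 members are described. Of each pathway list, at most 4 genes with the smallest p against PBS are named per agent, and, for each member, up to 3 genes of highest correlation. Members, lists and tests were chosen with earlier results of these data known. The model was tested on simulated data. Alternatives were DESeq2 1.42.0, RLE factors, no filter, no limit on the ratio, a fit of only the groups compared, a fit of all 18 tumors, pooled PBS tumors, a replicate block, each tumor left out, and, added after the data were seen, summed reads of Tlr1 and Tlr6.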

Additional observations from a re-analysis of the deposited data

Results flagged for a closer look

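The effect of exoCDN2 over PBS differed between 2 doses and 1, by a test of the interaction with edgeR, for 5 receptors: Tlr1 by 3.31, Tlr7 by 2.42, Tlr8 by 2.34, Tlr9 by 3.45 and Tlr13 by 4.15 on the log2 scale. For these, the edgeR adjusted p was 0.0071, 0.028, 0.039, 0.012 and 0.0021. The effect of CDN2 (20 µg) over PBS differed in the same way for Tlr1 by 1.86, Tlr5 by 4.41, Tlr6 by 5.17, Tlr7 by 2.70 and Tlr13 by 3.99, with an edgeR adjusted p of 0.048, 0.0027, 0.0051, 0.010 and 0.0027. All 10 differences were gains with the second dose. With each of 8 tumors left out in turn, calls were lost in 6 fits for Tlr7, 5 for Tlr8, 3 for Tlr9 and 1 for Tlr1 with exoCDN2, and in 6 for Tlr1 and 1 for Tlr7 with CDN2, and a replicate block ended the calls of Tlr8 with exoCDN2 and Tlr1 with CDN2. Both interactions share the 4 PBS tumors. Leukocyte markers also rose after the second dose of either agent, and their part in these differences was not tested.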

How the results depend on the processing

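Of 54 values recomputed under 670 combinations of value and setting, 60 combinations were labelled weaker, 16 stronger and 8 changed sign, none of the latter in a called value. Weaker stands for a call lost and stronger for a call gained. With summed reads of Tlr1 and Tlr6 the labels differ: a sum not called was weaker, also where the receptor had no call to lose. A summed value that was called counted as unchanged. With no filter on low counts, 28330 genes were tested, and 28474 for CDN2 of no stated amount. Calls over all genes in each comparison are given in brackets. Receptors called became 4 for CDN2 (100 µg) against PBS (1178) and 4 for exoCDN2 against EVs (1101). They became 1 for 100 against 20 µg (800) and 6 for exoCDN2 against CDN2 (20 µg) after 2 doses (3893). For PBS at 2 doses against 1 they became 1 (766), and for CDN2 of no stated amount 3 (713). In a fit of only the groups compared they became 4 for CDN2 (100 µg) against PBS (1352 of 15408 genes). For CDN2 (20 µg) against PBS after 2 doses they became 5 (3060 of 15817). They became 0 for exoCDN2 against CDN2 after 2 doses (30 of 16125) and 3 for the interaction of CDN2 (20 µg) (1179 of 16329). Pooled PBS tumors gave 5 for CDN2 (20 µg) against PBS after 2 doses (4933 of 16927 genes). DESeq2 gave 1 for CDN2 of no stated amount (359 of 17110 genes). In each case the cause was not tested. With each tumor left out in turn, calls ranged from 1 to 2 for CDN2 (100 µg) against PBS, from 5 to 8 for exoCDN2 against PBS after 2 doses, from 1 to 8 for exoCDN2 against CDN2 after 2 doses, from 3 to 6 for the interaction of CDN2 (20 µg), from 1 to 5 for that of exoCDN2, and from 0 to 1 for CDN2 of no stated amount. Calls over all genes changed in each of these comparisons as well. A group left with 1 tumor was assumed to vary like the others. With a tumor left out, the sign could change for exoCDN2 against CDN2 in Tlr2 after 1 dose (-0.25 to 0.25) and in Tlr7 (-0.19 to 0.61) and Tlr13 (-0.18 to 0.56) after 2 doses, and for Tlr4 with exoCDN2 against PBS after 2 doses (-0.63 to 0.39). With summed reads it changed for Tlr1, to -0.088.

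With the replicate number as a block, calls were 9 for exoCDN2 and 8 for CDN2 (20 µg) against PBS after 2 doses, 3 between them, and 4 for each interaction, with Tlr1 and Tlr8 lost. The block changed no other call. Nothing states that same-numbered tumors were paired, and their deviations correlated at 0.0022 on average. RLE factors or a prior count of 1 moved the median log2 level of the receptors from 1.86 to 1.86 and 1.85.

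With 2 tumors a group, intervals were often wider than 1 log2 unit, and the counts of Tlr5 and Tlr6 in control tumors were the lowest of the family.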

Other observations

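Tlr11 and Tlr12, receptors for profilin of parasites that mice have and humans lack in working form, were outside the 10 genes described above. Tlr11 was near the limit of detection, with 0 to 23 counts in a tumor, the highest being unloaded EVs replicate 2, and it was not called after 2 doses. Tlr12 was 0.755 and 0.810 CPM with PBS after 2 doses, 1.44 and 1.3 with exoCDN2, and 0.280 and 0.557 with CDN2 (20 µg). It was not called against PBS with either agent (edgeR adjusted p = 0.18 and 0.12), and it was higher with exoCDN2 than with CDN2 by 1.62 ± 0.42 on the log2 scale (edgeR adjusted p = 0.012), the direction that Tlr8 and Tlr9 had. The CDN2 side of that difference rested on 5 and 21 counts, the 5 in replicate 1, the shallow library. After 1 dose Tlr12 was 1.42 and 1.92 CPM with PBS, 0.476 and 0.736 with exoCDN2 and 1.09 and 1.55 with CDN2 (20 µg), and neither agent was called (edgeR adjusted p = 0.068 and 0.74).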
